A study of Mus musculus with 2 samples.

Results

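The 10 genes described here encode transcripts that rise in cells short of oxygen: Egln1 and Egln3, Bnip3, Ndufa4l2 and Pdk1, Slc2a1 and Aldoc, Vegfa and P4ha1, and Ankrd37. They were taken by symbol from the 32285 genes that the feature table lists, and each symbol matched 1 row. The set was proposed with earlier results of the same libraries known, so the values of these genes are given as a description. The cells were E14 mouse embryonic stem cells of 129/Ola background, a feeder-independent line derived from the inner cell mass, grown in serum with leukaemia inhibitory factor. One library, control, came from cells transfected with control siRNA by Lipofectamine 2000, and the other, sonKD, from cells transfected with siRNA against Son, which encodes a splicing-related protein of nuclear speckles. Both were collected 24 hours after transfection, frozen, thawed, sorted for exclusion of 7-AAD and barcoded with 10x Genomics Single Cell 3' v3 chemistry. Each group held 1 library, so no value given here could be set against the spread between replicates, and differences between libraries and effects of the siRNA cannot be told apart.

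Cells answer a lack of oxygen mainly through hypoxia-inducible factor, a pair of proteins of which the alpha subunit (HIF1A or EPAS1) is unstable in air and ARNT is constant. In oxygen, prolyl hydroxylases of the EGLN family mark the alpha subunit, and the VHL ubiquitin ligase with its partners Elongin B, Elongin C, Cullin 2 and RBX1 sends it to the proteasome. Without oxygen the alpha subunit survives, pairs with ARNT, binds the core letters ACGTG or GCGTG in DNA and raises genes for glucose uptake, glycolysis, lactate export, lower mitochondrial oxygen use, collagen maturation and vessel growth. Several of the genes it raises, Egln1 and Egln3 among them, act back on the pathway. Mouse embryonic stem cells in serum also rely heavily on glycolysis in air, and transcripts of this pathway are known in standard culture.

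Because the factor is known to bind those core letters, the promoters of the genes were searched for ACGTG and GCGTG on both strands, in RefSeq promoter windows on GRCm38.p6 from 250 bases before to 50 bases after each annotated start. Windows were at hand for 9 of the 10 genes, Ndufa4l2 being the other. They had 12 windows in all, of which 10 held either motif and 8 held ACGTG. Of all 32851 windows of that length, 43.8% held either motif and 19.6% held ACGTG. The windows of these genes were rich in CpG, with a median of 17 against 7 over all windows, and of the 10320 windows with at least 17, 72.4% held either motif and 28.7% held ACGTG. The 10 of 12 with either motif are thus near the share of windows with at least 17 CpG, while the 8 of 12 with ACGTG are above it. These counts include the second window of Vegfa, at 46025114 to 46025413, which lies inside the gene. The first window of Vegfa held neither motif. The match in CpG is loose, since some of the 12 windows hold fewer, such as those of Aldoc with 8 and 3. Bnip3 had the most matches, 5, followed by Ankrd37 with 4 and by Aldoc and P4ha1 with 3 each. Windows with at least 5 matches made up 1.66% of all windows, and those with at least 4 made up 3.86%. The 250 bases before the start are shown for the 3 genes with the most matches there, with matches in capitals:
Bnip3, chr7:138909507-138909756, minus strand: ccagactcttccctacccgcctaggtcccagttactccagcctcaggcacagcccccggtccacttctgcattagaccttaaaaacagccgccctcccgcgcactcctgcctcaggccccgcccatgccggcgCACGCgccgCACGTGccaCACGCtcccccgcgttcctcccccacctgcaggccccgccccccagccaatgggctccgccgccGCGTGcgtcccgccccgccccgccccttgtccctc
Ankrd37, chr8:45999851-46000100, minus strand: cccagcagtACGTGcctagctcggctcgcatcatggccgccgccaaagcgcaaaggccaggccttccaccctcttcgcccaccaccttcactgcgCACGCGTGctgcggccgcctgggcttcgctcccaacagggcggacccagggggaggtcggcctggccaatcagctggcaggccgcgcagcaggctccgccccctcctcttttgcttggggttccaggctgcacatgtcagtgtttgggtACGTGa
P4ha1, chr10:59323046-59323295, plus strand: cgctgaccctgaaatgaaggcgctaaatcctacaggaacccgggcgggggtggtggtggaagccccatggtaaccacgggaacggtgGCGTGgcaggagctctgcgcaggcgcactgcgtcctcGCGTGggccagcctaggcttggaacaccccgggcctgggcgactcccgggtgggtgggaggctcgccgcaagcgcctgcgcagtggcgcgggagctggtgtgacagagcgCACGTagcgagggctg
In Bnip3 the matches begin 117, 108, 107, 99 and 35 bases before the start, and the run CACGTG counts as a match on each strand. In Ankrd37 they begin 241, 155, 152 and 6 bases before it, the middle pair overlapping, and in P4ha1 163, 126 and 16 bases before it. In Slc2a1 an ACGTG match begins 36 bases before the start, and in Egln1 one begins 68 bases before it. The RefSeq starts of Egln1, Bnip3, Slc2a1, Aldoc and Ankrd37 lie inside the GENCODE genes given below, as do the second starts of Pdk1 and Vegfa. In each of these genes an annotated transcript begins farther upstream. A match describes the letters of the window and does not show that the factor binds there.

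The control library held 71046373 UMIs (unique molecular identifiers, each marking 1 captured molecule) and the sonKD library 60352438. Barcodes counted as cells passed minimums of 2500 UMIs and 1000 genes and had no more than 10% of UMIs from mitochondrial genes, which left 4978 cells with 40902904 UMIs in control and 2731 cells with 32032551 in sonKD. Median depth was 7737.5 and 11612 UMIs per cell, and 2 cell barcodes occurred in both libraries. The 8 stem cell markers were all present, at 134 to 5027 CPM in control, and 124 to 6075 in sonKD. CPM is the usual unit of relative abundance, a gene's UMIs scaled to the library's UMIs in cells. The 7 feeder fibroblast markers summed to 3.18 and 3.65 CPM, with Col3a1, Postn and Lum at 0 in both libraries, and the primitive endoderm and trophectoderm markers to at most 12.0 CPM a list. The erythroid and endothelial list summed to 55.4 and 54.1 CPM, of which 54.3 and 53.2 came from 1 gene, and Hbb-bs was at 0 in both. Son itself stood at 169 CPM in control, against 106 CPM in sonKD, or 62.7% of control. Below, paired values give control first and sonKD second, and intervals are at 95% and cover counting error only.

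Of the 10 genes, 5 stood at no more than 80% of their control level in sonKD, and none was at least 25% above it. The 5 were Vegfa, Aldoc, Egln3, Ndufa4l2 and Slc2a1. The 10 genes are among 8063 whose mean CPM of the libraries was 10 or more, and of these 10.2% were that much lower and 3.5% that much higher. Their median log2 ratio, sonKD over control, was -0.32, against -0.12 for all 8063 genes. The scaling bears on the count: with TMM factors, a scaling of the totals by a trimmed mean over genes, 3 of the 10 were at no more than 80% of control, while 4.59% of all genes were that much lower and 5.57% higher. Summed over the 10 genes the libraries held 18928 and 12164 UMIs, or 463 and 380 CPM, and Slc2a1 gave 46.5% and 43.0% of them.

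Egln1 and Egln3 encode prolyl hydroxylases that sense oxygen. Egln3 (ENSMUSG00000035105; chromosome 12 of GRCm38, 54178981 to 54203860, minus strand) was at 18.1 CPM (16.8 to 19.5) in control, against 13.2 CPM (12.0 to 14.6) in sonKD, a log2 ratio of -0.45 (-0.63 to -0.28). Egln1 (ENSMUSG00000031987; chromosome 8, 124908587 to 124949324, minus strand) was at 39.7 CPM (37.8 to 41.7) and 33.7 CPM (31.7 to 35.7), a log2 ratio of -0.24 (-0.35 to -0.13). The intervals of the libraries did not overlap for either gene, and with TMM factors the ratios were -0.36 (-0.54 to -0.19) and -0.15 (-0.26 to -0.04). Of all genes, 3.40% had a lower ratio than Egln3 and 21.8% a lower one than Egln1. The share of all genes with intervals apart was not counted.

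Slc2a1 encodes GLUT1, the glucose transporter of the plasma membrane, and Aldoc an aldolase of glycolysis. Slc2a1 (ENSMUSG00000028645; chromosome 4, 119108711 to 119137983, plus strand) gave 8808 and 5229 UMIs. Its level was 215 CPM (211 to 220) against 163 CPM (159 to 168). That put sonKD at 75.8% of control (73.2 to 78.5). Aldoc (ENSMUSG00000017390; chromosome 11, 78322968 to 78327781, plus strand) was at 19.3 CPM (17.9 to 20.7) and 13.9 CPM (12.6 to 15.2), or 71.9% of control (63.9 to 80.9). Both genes were lower in sonKD with intervals that did not overlap. The share of all genes with intervals apart was not counted. With TMM factors the log2 ratios were -0.31 (-0.36 to -0.26) for Slc2a1 and -0.38 (-0.56 to -0.22) for Aldoc. Of all genes, 5.07% had a lower ratio than Slc2a1 and 2.82% a lower one than Aldoc in the main scaling. Slc2a1 overlaps Mir1957a on its own strand and Gm12867 and Gm12868 on the other.

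Among the genes that act at mitochondria, one was lower in sonKD and the others differed by less than the counting error. Bnip3 encodes an outer membrane protein that marks mitochondria for removal by autophagy. It (ENSMUSG00000078566; chromosome 7, 138890836 to 138909519, minus strand) was at 28.8 CPM in each library (27.2 to 30.5 and 27.0 to 30.7), and the interval of its log2 ratio ran from -0.13 to 0.12. Pdk1 encodes a kinase that shuts pyruvate dehydrogenase and so keeps pyruvate out of the citric acid cycle. It (ENSMUSG00000006494; chromosome 2, 71873224 to 71903858, plus strand) was at 65.8 CPM (63.3 to 68.3) and 66.0 CPM (63.2 to 68.9), with an interval of -0.08 to 0.09. The intervals of both genes include 0 in this scaling, and with TMM factors the log2 ratio of Bnip3 was 0.09 (-0.04 to 0.22) and that of Pdk1 0.10 (0.01 to 0.18). Ndufa4l2, a relative of the complex IV subunit NDUFA4, is known to lower mitochondrial respiration in hypoxia. It (ENSMUSG00000040280; chromosome 10, 127514967 to 127517154, plus strand) was at 19.7 CPM (18.4 to 21.1) and 14.9 CPM (13.6 to 16.3), a log2 ratio of -0.41 (-0.57 to -0.24). Ndufa4l2 overlaps Shmt2 on the opposite strand. Of the words of 30 bases in the last 400 bases of Bnip3 transcripts, 27.1% also occur in the annotated genes Gm14506, Gm16439, Gm6532 and Gm9419, so its count depends on how such reads were assigned.

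Vegfa encodes the growth factor that draws in blood vessels, and P4ha1 the catalytic subunit of collagen prolyl 4-hydroxylase. Vegfa (ENSMUSG00000023951; chromosome 17, 46016993 to 46032369, minus strand) had the lowest ratio of the 10 genes. Its level was 16.1 CPM (14.9 to 17.3) against 11.3 CPM (10.1 to 12.5), a log2 ratio of -0.51 (-0.70 to -0.32). In cells of 5000 to 10000 UMIs, where the libraries overlap in depth, its ratio was -0.90, given without an interval. That is the alternative value farthest from the main one. In those cells 24.2% of all genes were at no more than 80% of control. With TMM factors the ratio of Vegfa was -0.42 (-0.61 to -0.23), and in cells with at most 5% mitochondrial UMIs it was -0.41. P4ha1 (ENSMUSG00000019916; chromosome 10, 59323296 to 59373304, plus strand) was at 28.0 CPM (26.4 to 29.6) and 24.6 CPM (22.9 to 26.4), a log2 ratio of -0.19 (-0.32 to -0.05). Ankrd37 encodes an ankyrin repeat protein. It (ENSMUSG00000050914; chromosome 8, 45996902 to 46005707, minus strand) was at 12.0 CPM (10.9 to 13.1) and 10.2 CPM (9.10 to 11.3), a log2 ratio of -0.24 (-0.44 to -0.03). The levels' intervals met for P4ha1 and overlapped for Ankrd37. With TMM factors the ratio was -0.10 (-0.23 to 0.04) for P4ha1 and -0.15 (-0.35 to 0.06) for Ankrd37, intervals that include 0. In cells of 5000 to 10000 UMIs Ankrd37 had a ratio of -0.05. Ankrd37 overlaps Ufsp2 and Lrp2bp on the opposite strand.

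**Figure D1:**
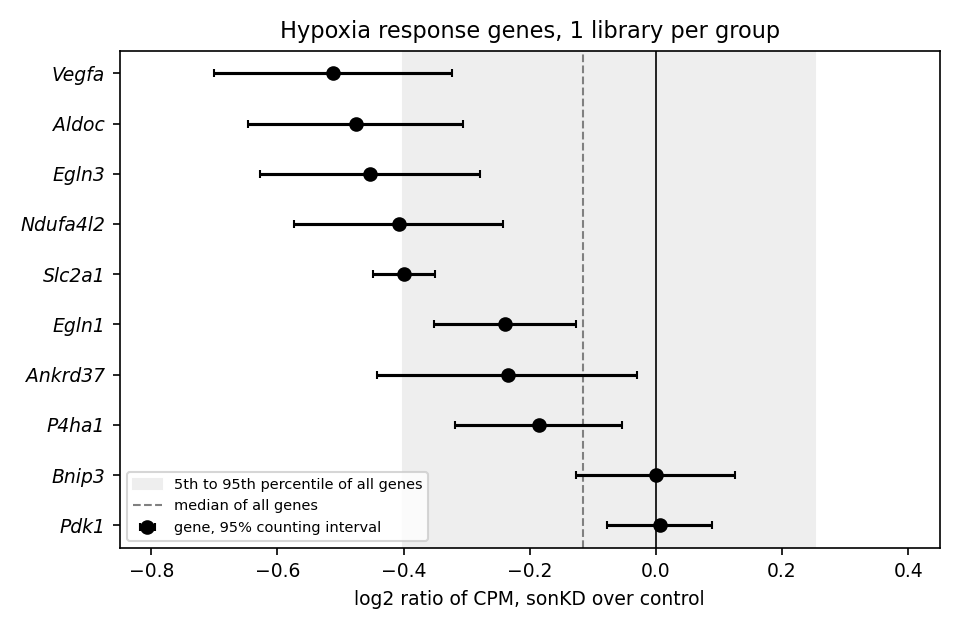
Log2 ratio of CPM, sonKD over control, for each of the 10 genes, with 95% counting intervals. The grey band spans the 5th to 95th percentile of the 8063 genes (-0.40 to 0.25) and the dashed line is their median. Vegfa, Aldoc, Egln3 and Ndufa4l2 lie below the band, while Bnip3 and Pdk1 lie at 0.

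Most cells had no UMI of most of these genes. To compare shares at equal depth, random draws brought all cells to 2500 UMIs, which left out no cell. A Slc2a1 UMI was then present in 38.0% of control cells (36.7 to 39.4), against 31.0% in sonKD (29.2 to 32.7). The difference was -7.05 percentage points (-9.25 to -4.82), and -9.87 points in a second random draw. Pdk1 was found in 14.9% (13.9 to 15.9) and 15.2% (13.9 to 16.6), a difference of 0.33 points with an interval of -1.34 to 2.04 that includes 0. Egln3 was found in 4.68% (4.11 to 5.30) and 3.04% (2.43 to 3.75), and Aldoc in 4.58% (4.02 to 5.20) and 3.08% (2.46 to 3.79). For Slc2a1, Egln3 and Aldoc the interval of the difference lay below 0. It did so for 28.0% of all 8063 genes too, so 3 of 10 is near the share of all genes and not a result about these genes, while 7.42% of all genes had an interval above 0. For the other 7 genes it included 0, so a difference in share was not detectable in this draw. Near that limit the draw decides: in a second draw the interval also lay below 0 for Egln1 and Vegfa, 5 genes in all, and at 5000 UMIs for Ndufa4l2 and Vegfa, again 5 genes. The share of all genes was not counted in the second draw or at 5000 UMIs, so these counts of 5 cannot be read as an excess. In the first draw the shares of these 7 genes ran from 2.77% (Ankrd37) to 14.9% (Pdk1) of control cells and from 2.64% to 15.2% of sonKD cells. Without thinning, with the sonKD cells deeper, the shares were higher: Slc2a1 was then found in 72.4% and 73.0%, Pdk1 in 38.1% and 49.5%, Bnip3 in 16.9% and 22.0%, and Egln3 in 12.4% and 12.2%.

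A few cells held many molecules. The largest number in 1 cell was 16 Slc2a1 UMIs in control and 19 in sonKD, 6 and 8 for Bnip3, 5 and 8 for Ndufa4l2, and 10 and 7 for P4ha1. At least 5 Bnip3 UMIs were found in 8 control cells (0.161%) and 17 sonKD cells (0.622%), before thinning. These counts are not at equal depth, the sonKD cells being deeper. At least 5 Slc2a1 UMIs were likewise found in 8.50% of control and 10.4% of sonKD cells, though its CPM was lower in sonKD. Of the thinned cells, 38.7% in control and 44.6% in sonKD had no UMI of any of the 10 genes. At full depth the median cell of either library held 2 of the 10 genes, and 2 cells of each held all 10. The variance over the mean of thinned counts, which is 1 for pure counting error, was 1.23 and 1.24 for Slc2a1, 1.17 and 1.22 for Bnip3 and 1.16 and 1.22 for Ndufa4l2. The median over all genes was 1.02 in control and 1.03 in sonKD, and the 95th percentile 1.15 and 1.16. Aldoc, at 0.97 and 1.06, did not vary beyond counting error in control.

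No cell type that lacks these genes was at hand as a background, so they were also counted in near-empty droplets of 100 to 500 UMIs, which hold free RNA. The 10 genes together were at 236 CPM (229 to 243) in control droplets and 175 CPM (169 to 181) in sonKD droplets. In cells they were at 463 and 380 CPM, so the log2 ratios of droplets over cells were -0.97 and -1.12. P4ha1 stood farthest above free RNA, with droplets at 8.22 and 5.79 CPM against 28.0 and 24.6 CPM in cells. Vegfa and Egln3 were also higher in cells, with droplets at 5.45 and 3.59 CPM for Vegfa and 6.21 and 5.36 CPM for Egln3. Ndufa4l2 and Ankrd37 were not: droplets held Ndufa4l2 at 17.6 and 15.7 CPM and Ankrd37 at 12.2 and 9.17 CPM, and the intervals of droplets over cells included 0 in both libraries. A low level of these genes in a cell can therefore not be told apart from free RNA. Aldoc and Bnip3 lay between, with droplets over cells at -0.41 and -0.56 for Aldoc and -0.61 and -0.70 for Bnip3.

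Barcodes past the same UMI and gene minimums but with over 10% mitochondrial UMIs, 625 in control and 1056 in sonKD, were left out of the cells. In them the genes split. Aldoc was at 5.57 CPM (2.78 to 9.96) and 4.94 CPM (2.93 to 7.81), with log2 ratios to cells of -1.79 and -1.49. Bnip3 was at 11.6 and 8.51 CPM, with ratios of -1.31 and -1.76, and Egln3 at 9.11 and 6.04 CPM, with ratios of -0.99 and -1.13. Pdk1 and Slc2a1 were higher there than in cells, Pdk1 at 95.2 and 97.7 CPM and Slc2a1 at 249 and 234 CPM. For these 5 genes the interval of the ratio lay on the same side of 0 in both libraries. The share of all genes with such intervals was not counted, so this is not a result about these genes. The totals of these barcodes hold more mitochondrial UMIs, which by itself lowers the CPM of other genes. Slc2a1 in the high-mitochondrial barcodes had overlapping intervals between libraries, 227 to 272 CPM in control and 219 to 250 CPM in sonKD. These barcodes made up 11.2% of control and 27.9% of sonKD barcodes past the UMI and gene minimums.

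**Figure D2:**
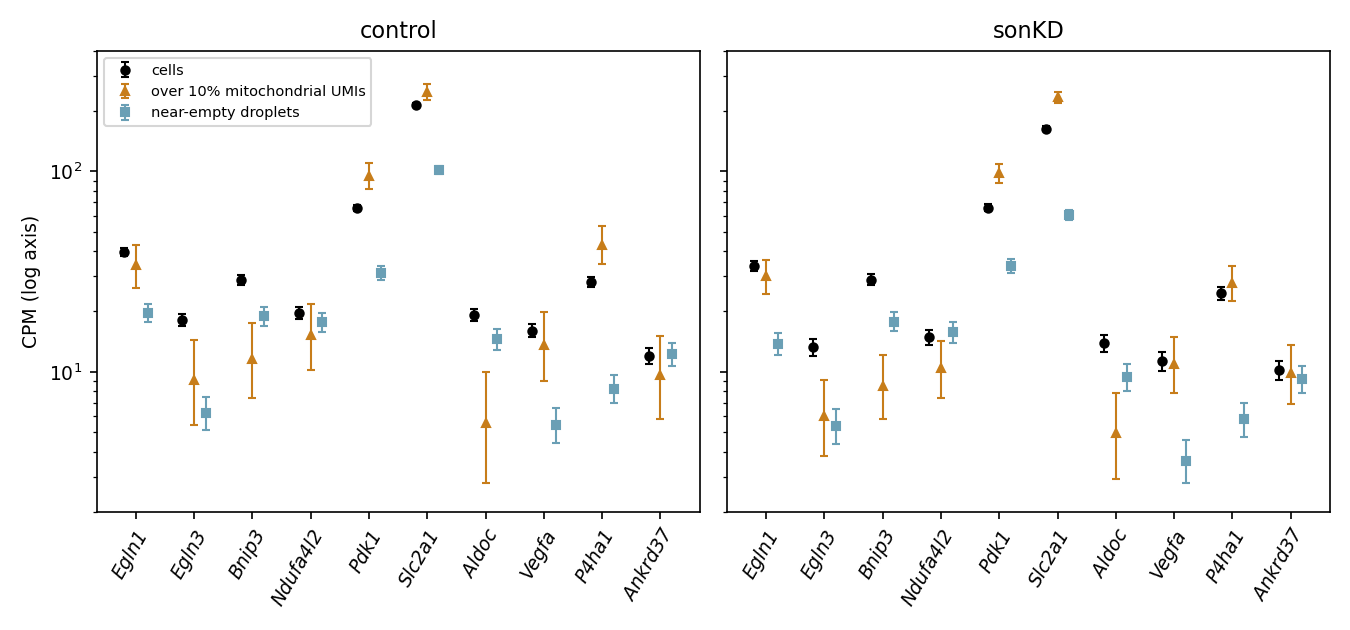
CPM (log axis) of each gene in cells, in barcodes with over 10% mitochondrial UMIs and in near-empty droplets, for each library, with 95% Poisson intervals. Bnip3, Egln3 and Aldoc are lower in high-mitochondrial barcodes than in cells and Pdk1 and Slc2a1 higher, while Ndufa4l2 and Ankrd37 in droplets lie at their level in cells.

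Within each library several of the genes were found together in the same cells. Of the 45 pairs, 15 in control and 13 in sonKD had a share of cells with one gene whose interval in cells with the other gene lay above that in cells without it. Among all pairs of the 8053 other genes at the CPM minimum, these shares were 1.31% and 0.804%. Of thinned control cells with an Egln3 UMI, 16.3% also had a Bnip3 UMI (11.8 to 21.7), against 5.90% of cells without an Egln3 UMI (5.25 to 6.61). In sonKD these shares were 18.1% (10.5 to 28.1) and 6.19% (5.31 to 7.18). Bnip3 was likewise found in 12.2% of control cells with Egln1 and 5.81% of those without it, and in 16.5% and 5.64% in sonKD. Of control cells with Bnip3, 14.5% had Ndufa4l2 (10.8 to 18.8), against 4.21% of the others (3.65 to 4.82), and in sonKD 8.38% (4.77 to 13.4) against 3.64% (2.95 to 4.45). Slc2a1 was found in 50.0% of control and 49.7% of sonKD cells with Bnip3, against 37.2% and 29.7% of cells without it. Over all pairs, Pearson's r of log counts was above 0 for 44 in control and 38 in sonKD, and for 37 in both, while 51.3% and 50.6% of the pairs of other genes had an r above 0. In these sparse counts the values were small, with medians of 0.031 and 0.036 and a highest r of 0.117 and 0.133. Cells of a pair share their library and its free RNA. For Pdk1, r with any other gene was at most 0.037 in control and 0.041 in sonKD, and it was -0.0071 with Ankrd37 in control and -0.015 with Egln1 in sonKD.

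To see where the genes were high together, cells were marked when their thinned counts of the 10 genes summed to at least 4 UMIs, the smallest sum that at most 10% of control cells reached. That range held 304 control cells, or 6.11% (5.46 to 6.81), and 115 sonKD cells, or 4.21% (3.49 to 5.03). The difference was -1.90 points (-2.90 to -0.85). It is a range of a continuous sum and not a cell type: 362 control and 155 sonKD cells lay at 3 UMIs, and 176 and 64 at exactly 4. At a minimum of 5 UMIs the difference was -0.70 points, with an interval of -1.38 to 0.014 that includes 0, and at 3 UMIs it was -3.49 points (-4.96 to -1.99). Marked cells were close to the others in depth, with medians of 7402 against 7755.5 UMIs in control and 10953 against 11632.5 in sonKD, and in mitochondrial UMIs, with 3.71% against 3.65% and 3.97% against 4.10%.

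**Figure D3:**
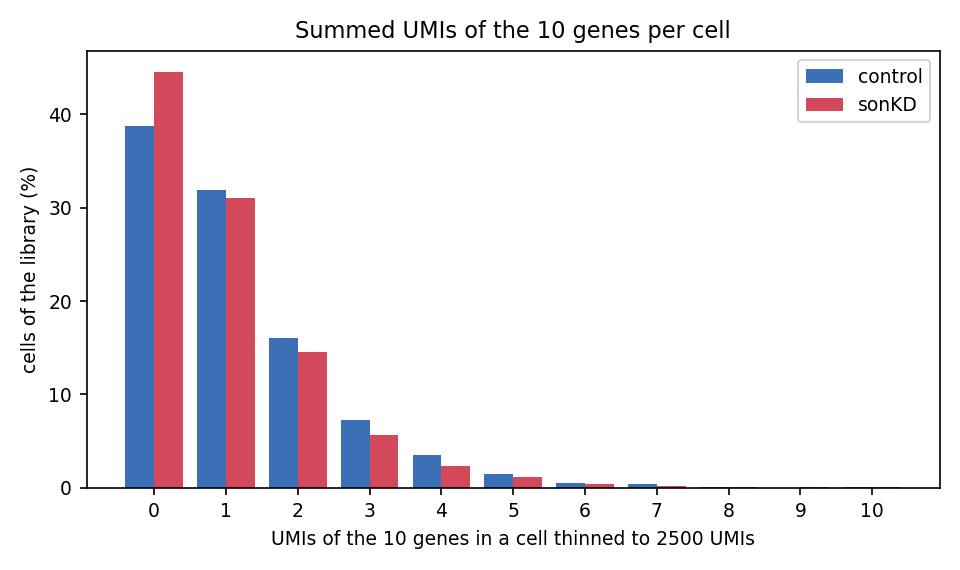
Share of cells (%) by the summed UMIs of the 10 genes in a cell thinned to 2500 UMIs, for 4978 control and 2731 sonKD cells. Both libraries fall off smoothly with no separate group of cells, and sonKD has more cells at 0 (44.6% against 38.7%).

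Each gene was then measured in cells marked by the other 9 genes alone. All 10 were at least 25% higher in those cells than in the remaining cells in both libraries, with intervals of the log2 ratio above 0. With cells marked by all 10 genes, 3.49% of the 8053 other genes were that much higher in both libraries and 2.26% that much lower. Bnip3 was at 84.3 CPM in 249 marked control cells (72.1 to 97.9) and 25.9 CPM in the rest (24.4 to 27.6), and at 111 CPM (90.8 to 134) and 26.3 CPM (24.5 to 28.1) in sonKD. Its log2 ratios were 1.70 and 2.08. The ratios of Ndufa4l2 were 1.52 in control and 2.16 in sonKD, and those of Egln3 1.36 and 1.81. Ndufa4l2 thus reached 51.6 and 59.4 CPM in marked cells, above its level in droplets, and Ankrd37 22.9 and 30.6 CPM. Slc2a1, whose own UMIs form much of the sum and were left out of its mark, had 71 and 32 marked cells and was at 388 against 213 CPM in control and 340 against 161 CPM in sonKD.

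The genes that differed least between libraries did not behave alike over cells. Bnip3 had among the highest ratios between marked and other cells, and Pdk1 the lowest, 0.45 (0.21 to 0.68) in control and 0.58 (0.27 to 0.88) in sonKD. The ratio was higher in sonKD than in control for all 10 genes, as it was for 51.0% of the 8053 other genes and for 66.2% of the 281 other genes that were at least 25% higher in marked cells of both libraries. The intervals of the libraries overlapped for 9 of the 10. Pearson's r over cells did not follow that order: r of a gene with the sum of the other 9 was smaller in sonKD for 6 of the 10, from 0.129 in control to 0.095 in sonKD for Egln1, from 0.136 to 0.099 for Ndufa4l2 and from 0.056 to 0.041 for Aldoc. It was 0.058 and 0.111 for Ankrd37, and 0.141 and 0.150 for Bnip3. Aldoc was the gene whose intervals were apart, with a ratio in marked over other cells of 0.78 (0.41 to 1.13) in control and 1.80 (1.36 to 2.22) in sonKD. Its level in marked cells was 31.8 CPM (24.9 to 40.0) and 44.2 CPM (33.1 to 57.8), and in the other cells 18.5 CPM (17.2 to 19.9) and 12.7 CPM (11.5 to 14.0). Between libraries, the intervals of Aldoc thus overlapped in the marked cells and were apart in the other cells. The difference between the ratios was not tested. The share of other genes with intervals apart was not counted, so this is not a result about Aldoc. With all 10 genes counted, the sum of at least 4 UMIs marked 6.11% of control and 4.21% of sonKD cells. The marked cells are thus a narrower upper range in sonKD, and the bearing of this on the ratios was not tested.

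**Figure D4:**
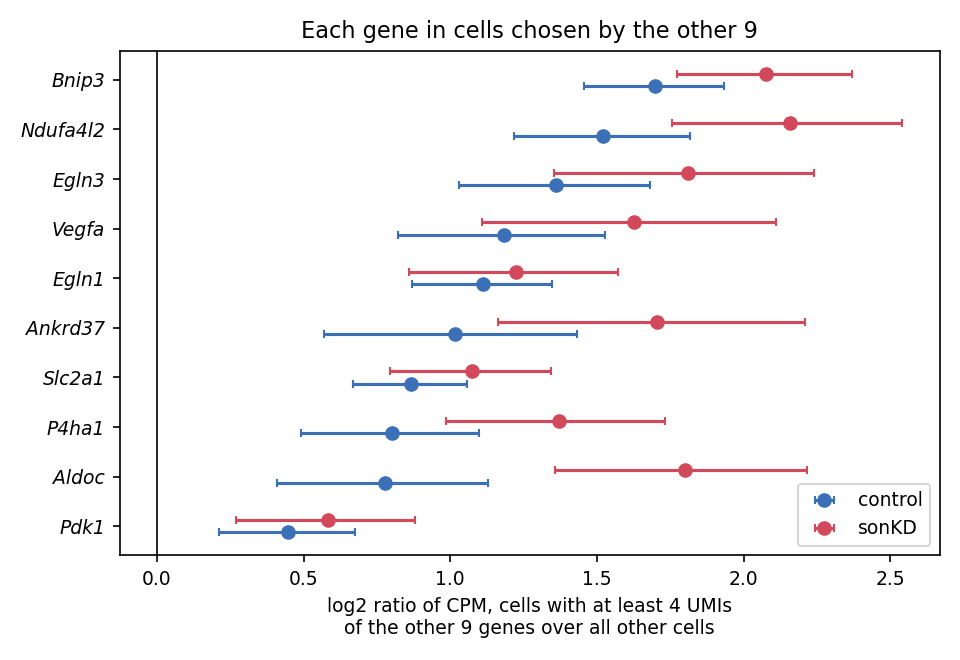
Log2 ratio of each gene's CPM in cells with at least 4 UMIs of the other 9 genes over its CPM in the remaining cells, with 95% counting intervals, in control and sonKD. All points lie above 0, Bnip3 and Ndufa4l2 highest and Pdk1 lowest, and the libraries' intervals are apart for Aldoc.

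Other genes of the pathway came from a list of known targets and regulators, of which 66 were matched and 44 had a mean of at least 10 CPM. Between libraries 11 of the 44 stood at no more than 80% of control in sonKD and 3 at least 25% above control, with a median log2 ratio of -0.13, near the -0.12 of all genes. Of all genes, 10.2% were that much lower and 3.5% that much higher. With TMM factors the counts were 5 and 4 of the 44, and the shares of all genes were 4.59% and 5.57%. The lowest on the list were Gapdh at -0.86, the HIF antagonist Cited2 at -0.62 and the transferrin receptor Tfrc at -0.47. The highest were Eloc at 0.54, Eno1 at 0.48 and Elob at 0.44. Gapdh and Eno1 have near-identical copies in the genome, so their counts depend on how reads were assigned. Of 11 regulators, 4 were lower and 2 higher by that fold: Cited2, Vhl, Arnt and Hif1an, the asparagine hydroxylase that blocks HIF activity, were lower, and the VHL partners Elob and Eloc higher. With TMM factors 1 of the 11 was lower and 3 were higher. Hif1a was at 71.4 and 58.6 CPM, a log2 ratio of -0.29 (-0.37 to -0.20), and Epas1 at 12.2 and 10.1 CPM. Of the 16 genes of glucose and lactate handling, 4 were lower and 1 was higher, against 1 and 1 with TMM factors, and the lactate dehydrogenase gene Ldha was at 887 and 852 CPM.

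Over cells the same list divided by role. In cells marked by the 10 genes, 19 of the 44 were at least 25% higher than in other cells in both libraries and none was lower, against 3.49% and 2.26% of the 8053 other genes. The 19 included 11 of 16 glucose and lactate genes, 3 of 4 mitochondrial genes, 3 of 4 genes of matrix and secretion and 2 of 8 genes of signalling and transcription, and none of the 11 regulators. Slc16a3, the lactate exporter MCT4, was at 69.9 CPM in marked and 31.0 CPM in other control cells, and at 77.6 and 25.8 CPM in sonKD. Its log2 ratios were 1.17 (0.93 to 1.40) and 1.59 (1.28 to 1.89). Ddit4, an inhibitor of mTOR signalling, had ratios of 1.31 (0.98 to 1.62) and 1.66 (1.28 to 2.02), and Pfkp, a phosphofructokinase, 0.94 and 1.20. Ero1l, which oxidises proteins in the endoplasmic reticulum, had 0.79 and 1.10, and Fam162a, a mitochondrial protein, 0.78 in both. By contrast Hif1a had -0.20 (-0.45 to 0.03) in control and -0.010 (-0.36 to 0.32) in sonKD, and Arnt 0.06 (-0.26 to 0.37) and 0.41 (-0.04 to 0.83). All 16 glucose and lactate genes had ratios above 0 in both libraries, but Gapdh, Eno1 and Pgam1 were among the 5 that were not that much higher in both. The medians of the whole list were 0.32 in each library, against 0.0074 and 0.012 for all other genes.

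**Figure D5:**
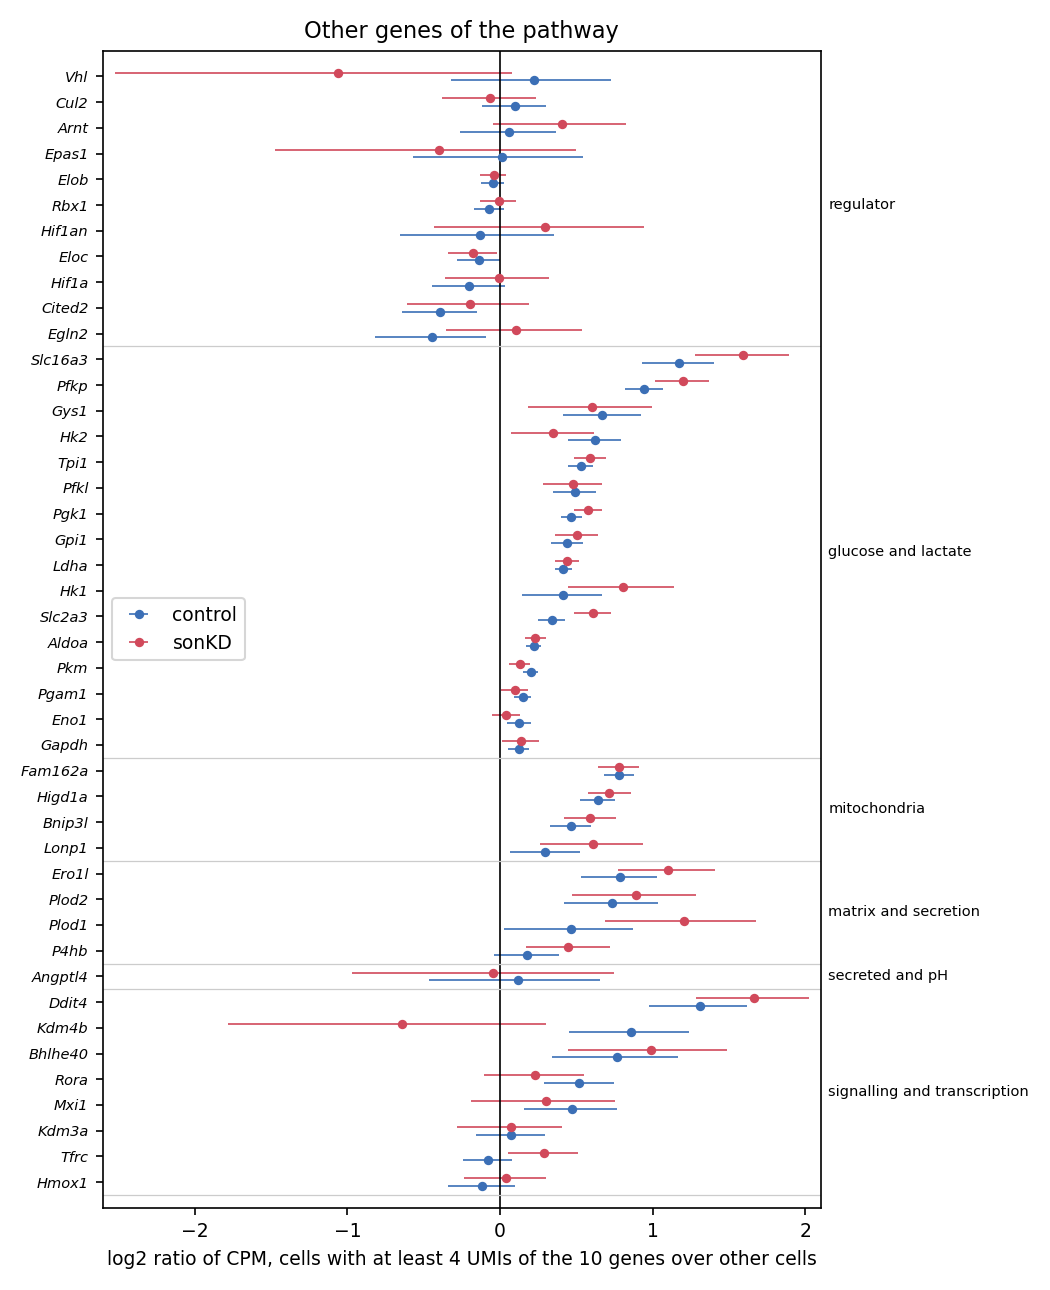
Log2 ratio of CPM in cells with at least 4 UMIs of the 10 genes over other cells for the 44 further genes of the pathway, grouped by role, with 95% counting intervals, in control and sonKD. The regulators lie on both sides of 0, Vhl in sonKD farthest and counted from 6 UMIs, while Ddit4 and Slc16a3 have the highest ratios in both libraries.

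Other genes were ranked by Pearson's r with the summed 10 genes in thinned cells, taking the smaller r of the 2 libraries over 3202 other genes that averaged 50 CPM or more. Slc2a1 gave 46.5% and 43.0% of the UMIs of the 10 genes in cells, and no ranking without it was made. Cells share their library and free RNA, and r is limited by sparse counts. The first was Tdgf1, which encodes the Nodal co-receptor Cripto, with r of 0.202 in control and 0.184 in sonKD, rank 1 in each. It was at 892 CPM in marked and 575 CPM in other control cells, and at 942 and 547 CPM in sonKD. Pfkp (0.136 and 0.125) and Ldha (0.136 and 0.122) ranked next in both libraries. Then came Tpi1, the uridine phosphorylase gene Upp1, Higd1a, Igfbp2, Pgk1, Fam162a, the histone demethylase gene Kdm5b, Ifitm1, Bnip3l, Prelid2, Ifitm2 and Clcn3. Of these 15 genes, 7 were on the pathway list. The share of list genes among the 3202 was not counted. Over all 8053 other genes the median r was 0.00087 and 0.0033, and 1.42% lay above the 95th percentile in both libraries, as did 17 of the 44 pathway genes. Genes that ran the other way were led by the ferritin light chain copy Ftl1-ps1 (r of -0.135 and -0.191), whose reads may belong to near-identical ferritin genes. With it were Gpx1, a glutathione peroxidase, Apoe, Selenoh and the ferritin heavy chain Fth1. Gpx1 was at 244 CPM in marked and 350 CPM in other control cells, and at 247 and 386 CPM in sonKD.

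Tdgf1 was at 594 CPM (586 to 601) against 563 CPM (555 to 571) between the libraries, a log2 ratio of -0.08 where the median of all genes was -0.12. Of the 15 genes, 10 had a ratio below 0 and 5 above 0, and 2, Pfkp and Ifitm2, stood at no more than 80% of control, and none was at least 25% above it. Of all 8063 genes, 74.9% had a ratio below 0, 10.2% were that much lower and 3.5% that much higher. The counts of the 15 genes are near these shares and not a result about them. Pfkp had a ratio of -0.36 (-0.42 to -0.29) and Ifitm2 one of -0.40 (-0.43 to -0.38), while the highest was that of Upp1 at 0.26 (0.22 to 0.29).

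The sum of the 10 genes was also set against other properties of the cells. Its r with the mitochondrial UMIs of a thinned cell was -0.027 in control and -0.039 in sonKD, with the depth of the cell before thinning 0.027 and -0.013, and with the stem cell markers 0.033 and 0.018. With the glucose and lactate list it was 0.202 and 0.161, the largest of the 10 properties compared in each library. With the number of genes found in the thinned cell it was 0.053 in control and 0.121 in sonKD, with the S phase list 0.020 and 0.081, and with Son 0.00080 and 0.072. For single genes, the 99th percentile of r was 0.053 and 0.063. Bnip3 differed with the G2/M gene list: it stood at 34.0 CPM (31.7 to 36.5) in the 2625 control cells above the median of that list and 22.0 CPM (19.9 to 24.3) in the other 2353. In sonKD it was at 32.2 CPM (29.4 to 35.1) and 25.6 CPM (23.2 to 28.2). Vegfa stood at 18.4 CPM (16.7 to 20.2) and 13.0 CPM (11.4 to 14.8) in those control cells, and at 11.8 CPM (10.2 to 13.7) and 10.7 CPM (9.21 to 12.5) in sonKD, where the intervals overlapped. Slc2a1 was at 215 and 216 CPM in control and 162 and 164 CPM in sonKD. The share of all genes with intervals apart between these sets of cells was not counted. The values are thus not a result about Bnip3 or Vegfa. With each library cut into 4 bins of depth, the 10 genes together ranged from 447 to 498 CPM in control and from 365 to 395 CPM in sonKD, so every sonKD bin was below every control bin.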

How the data were processed

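UMI counts per gene and barcode were deposited by the authors as raw counts. They were made with Cell Ranger 7.1.0 per the file headers, on build mm10 per the submitters' processing notes. Neither the annotation release nor whether intronic reads were counted is given in the sources used here. Gene positions are from GENCODE M21 on GRCm38, and promoters from RefSeq on GRCm38.p6.

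Counts were summed over cells and divided by the library total to give CPM. Log2 ratios carry exact conditional binomial intervals, levels exact Poisson and shares exact binomial (Clopper-Pearson) intervals, all at 95% and for counting error only. Intervals of differences between shares combine both bounds as a root sum of squares. With 1 library per group no test was made, and cells are not replicates. Thinning drew UMIs at random to 2500 per cell.

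Doublets were kept. Scrublet (scanpy 1.11.5) called 0.0603% of control and 0.0366% of sonKD cells, too few for a working call, so an alternative removed the highest scores at 0.8% per 1000 cells, 198 and 60 cells. Other alternatives used TMM (edgeR 4.0.16), size factors (DESeq2 1.42.0), other limits on cells and other thinning. Ratios and correlations were tested on simulated data.

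The genes and lists were chosen with earlier results of these data known. Named genes are the 10 genes, the 3 highest and 3 lowest ratios of the pathway list, and the 15 highest and 5 lowest r. Promoters shown are those with most matches. Other genes were named after their values were seen.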

Additional observations from a re-analysis of the deposited data

How the results depend on the processing

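No paired analysis was possible because each group held 1 library and no test was made. Of 80 alternative values of the single-gene log2 ratios, 74 stayed inside the counting interval of the main value. The other 6 were Slc2a1 under TMM factors (-0.31), DESeq2 size factors (-0.31) and CPM without mitochondrial and ribosomal protein genes (-0.33), Pdk1 under TMM factors (0.10) and size factors (0.09), and Vegfa in cells of 5000 to 10000 UMIs (-0.90). The log2 ratio of the summed genes, -0.29 in the scaling by library total, was -0.20 under TMM factors, -0.20 under size factors and -0.21 without mitochondrial and ribosomal protein genes. These scalings divide by another total and shift the median of all genes by at most 0.09, so the median of the 10 genes stayed 0.20 below that of all genes under each of the 3, and 0.11 below it in cells of 5000 to 10000 UMIs. The count of genes at no more than 80% of control was 3 under TMM factors and 4 or 5 under the other 7 alternatives. The share of all genes that much lower was not stable, from 4.59% under TMM factors to 24.2% in cells of 5000 to 10000 UMIs. The count was 4 in those cells and also under size factors, where 4.75% of all genes were that much lower. The difference in the share of marked cells was -3.49 points from 3 UMIs and -0.70 points from 5 UMIs, where fewer cells are marked by construction, and -2.21 points in a second random draw of the thinning that was added after seeing the data. Without thinning or at 5000 UMIs the shares of cells with a UMI were higher by construction. At a depth of 2500 UMIs a difference in share was detectable for 3 of the 10 genes, and for 5 in the second draw. In the first draw the interval lay below 0 for 28.0% of all genes, and in the second this share was not counted.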
